A study of Mus musculus with 10 samples.

Results

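Fos, Egr1, Junb and Nr4a1 are immediate early genes, and their chromatin was described here in mouse bone marrow-derived mast cells for which no stimulus is stated. The members were the ChIP-seq peaks of all 5 deposited lists that overlapped 4 fixed windows of the mm9 build. The windows were chr12:86770000-86870000 for Fos, chr18:34980000-35060000 for Egr1, chr8:87480000-87530000 for Junb and chr15:101060000-101140000 for Nr4a1. They held 183 of the 234627 peaks, 74 for histone H3 lysine 27 acetylation (H3K27ac) and 109 for histone H3 lysine 4 monomethylation (H3K4me1). By window there were 27 peaks at Fos, 64 at Egr1, 54 at Junb and 38 at Nr4a1.

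The study mapped H3K27ac in 3 immunoprecipitates and H3K4me1 in 2, each with its own input, to find putative enhancers. All groups were the same cells: cultures from C57BL/6 mice 6 to 8 weeks old, kept 4 weeks with 20 ng/ml interleukin-3, with a purity above 99% by flow cytometry for Kit and the IgE receptor. The labels name no altered gene and no other agent, so the comparisons are between marks, lists and loci. Nothing in the labels says whether replicates came from different cultures or mice. The p-values therefore measure the spread between these lists, which may be technical. The 3 H3K27ac lists rested on 10457047 to 16356587 immunoprecipitate tags and the 2 H3K4me1 lists on 14685161 to 19513552. Caller version also changed with the mark, and these cannot be told apart. Over the whole genome H3K27ac peaks covered 30.7, 25.4 and 22.9 Mb in replicates 1, 2 and 3. H3K4me1 peaks covered 34.1 and 34.2 Mb in replicates 1 and 2. Cover of the windows was not scaled to these totals. Mast cell markers were not checked, because no gene annotation of mm9 was used. The nearest protein-coding neighbours by RefSeq order in GRCm38.p6 are Tmed10 and Jdp2 beside Fos, Reep2 and Etf1 beside Egr1, Prdx2 and Hook2 beside Junb, and Grasp and Atg101 beside Nr4a1. Peaks were not assigned to genes.

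Immediate early genes are transcribed within minutes of a stimulus without new protein being made, and in mast cells crosslinking of the IgE receptor is such a stimulus. Fos and Junb encode subunits of the AP-1 transcription factor, Egr1 a zinc finger transcription factor and Nr4a1 an orphan nuclear receptor. H3K27ac marks active promoters and enhancers, while H3K4me1 is found at active and inactive enhancers alike and tends to flank, not cover, the start of an active gene. Many such genes carry cAMP response elements next to their start, which bind CREB-family factors, and a TATA box, which helps place the start of transcription.

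RefSeq promoters, 250 bases before to 50 after an annotated start, matched 3 of the 4 genes, Fos, Junb and Nr4a1, but not Egr1. These promoters are printed to show the sequence at the gene starts, where some elements that answer to stimuli are known to lie. Their coordinates are those of GRCm38.p6 and cannot be set beside the mm9 peaks. Capitals mark TGACG, the core of the cAMP response element, on either strand (CGTCA on the other), and TATAAA, the letters of a TATA box. Matches were marked wherever they lay in the sequence.
Fos (GRCm38.p6 chr12:85473640-85473939, plus strand): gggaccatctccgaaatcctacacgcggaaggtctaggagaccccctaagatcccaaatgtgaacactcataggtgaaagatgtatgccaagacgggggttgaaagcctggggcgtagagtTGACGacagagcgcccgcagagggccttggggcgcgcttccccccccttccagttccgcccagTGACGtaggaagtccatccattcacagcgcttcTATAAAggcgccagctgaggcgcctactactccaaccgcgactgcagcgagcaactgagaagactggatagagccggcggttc
Junb (GRCm38.p6 chr8:84978699-84978998, minus strand): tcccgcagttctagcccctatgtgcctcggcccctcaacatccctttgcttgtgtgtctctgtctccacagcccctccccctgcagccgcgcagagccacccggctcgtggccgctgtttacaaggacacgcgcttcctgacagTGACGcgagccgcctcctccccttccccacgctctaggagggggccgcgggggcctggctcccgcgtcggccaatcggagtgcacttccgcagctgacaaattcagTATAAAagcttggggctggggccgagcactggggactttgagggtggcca
Nr4a1 (GRCm38.p6 chr15:101266596-101266895, plus strand): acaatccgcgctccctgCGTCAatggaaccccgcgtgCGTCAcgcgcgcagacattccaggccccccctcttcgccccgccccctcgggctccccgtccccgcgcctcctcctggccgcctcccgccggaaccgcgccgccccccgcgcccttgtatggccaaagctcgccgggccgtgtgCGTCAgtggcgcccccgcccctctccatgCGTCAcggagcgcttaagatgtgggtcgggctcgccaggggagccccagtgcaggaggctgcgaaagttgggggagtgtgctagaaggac

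Nr4a1 held the most cAMP response element cores among the 3 promoters searched. Its promoter had 4 TGACG matches, all on the other strand, and as many were found in 76 of 32851 RefSeq promoters, or 0.231%. Fos had 2, and 5.01% of promoters had at least as many. Junb had 1, and 20.8% of promoters had at least 1. TATAAA occurred in Fos at base 218 of 300 and in Junb at base 251, and was not found in Nr4a1, against 13.6% of all promoters with a match. The Fos match lay in the 250 bases before the annotated start, and the Junb match lay in the 50 bases after them. Nr4a1 also held 3 GC boxes (GGGCGG), and 10.7% of promoters had at least as many, while 35.7% had at least 1. Its 1 EGR site (GCGNGGGCG, in 5.55% of promoters) began at base 191 and overlapped the GC box that began at base 196. Fos held 1 GC box and no EGR site, and Junb held none of either. The full element TGACGTCA (in 1.79% of promoters), the AP-1 site TGANTCA (in 7.81%) and the CArG box (in 1.63%), which binds serum response factor, had no match in any of these 3 windows of 300 bases. All motifs were searched on both strands of these bases. Sequence more than 250 bases before the starts was not searched, so a missing match does not show that a gene lacks the site. G and C made up 58.7% of the bases in Fos, 65.3% in Junb and 72.3% in Nr4a1, beside a median of 52.7% over all promoters. The shares given are over all promoters and were not matched for this content. The matches are a description of the letters, and no binding was measured.

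The 4 loci fell into a pair with extended H3K27ac, Junb and Egr1, and a pair with little, Nr4a1 and Fos. Peaks of a mark's lists were joined into regions, and a region with a peak in every list of the mark was called consensus. Of the joined regions in the 4 windows, 13 of 32 were consensus for H3K27ac and 34 of 69 for H3K4me1, shares of 40.6% and 49.3% beside 45.5% and 51.2% over all regions of the series. The 13 H3K27ac consensus regions were 7 at Junb, 5 at Egr1, 1 at Nr4a1 and 0 at Fos. The 34 for H3K4me1 were spread more evenly, with 11 at Egr1, 9 at Junb, 9 at Nr4a1 and 5 at Fos. Where a list has no peak, enrichment stayed under the limit of the caller, which does not show that the mark was absent.

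The window of Junb, which encodes an AP-1 subunit of the Jun family, had the widest H3K27ac. Which of its regions belong to Junb and which to neighbours such as Prdx2 or Hook2 was not determined. H3K27ac peaks covered 26.5%, 22.96% and 19.1% of the Junb window in replicates 1, 2 and 3. H3K4me1 peaks covered 13.3% and 13.8% in replicates 1 and 2. Every H3K27ac list was above both H3K4me1 lists. Mean cover was 11.4 ± 1.86 kb for H3K27ac (SD, n = 3) and 6.77 ± 0.202 kb for H3K4me1 (SD, n = 2), a difference of 4.66 kb (exact permutation test over lists, two-sided p = 0.2, adjusted p = 0.267 over the 4 loci). With 3 lists against 2 that test cannot give a p below 0.1. Of all adjoining windows of the same length on chromosomes 1 to 19 and X, 0.540%, 0.540% and 0.733% were covered as much by H3K27ac in the 3 lists, and 1.95% and 1.82% by H3K4me1 in the 2 lists. Those windows were not chosen to hold a gene, and 77.5% to 80.3% of them held no H3K27ac peak in a list.

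At Junb itself H3K27ac lay where H3K4me1 was not called. A consensus H3K27ac region from 87500607 to 87502601, 1995 bp long, crossed the position 87501000 given for the gene. Its highest folds over input, the authors' own value for each peak, were 23.4, 11.3 and 8.75 in replicates 1, 2 and 3, with ranks of 1289, 4285 and 10844 in lists of 39837, 34035 and 30599 peaks. No H3K4me1 peak of either list lay between 87494397 and 87503476, a stretch of 9.08 kb around that position. Within 1 kb of it H3K27ac covered 1681, 1579 and 1136 bp in the 3 lists, and H3K4me1 covered 0 bp in both. The position is given only as near the gene, and whether it is the start of Junb is not stated.

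In the Junb window H3K27ac continued from the gene position towards higher coordinates, the side that is upstream for a gene on the minus strand. Of the 7 consensus regions 5 lay on that side, 1 lay across the gene position and 1 on the lower side. The next region, 87502805 to 87504154, had folds of 24.8, 7.43 and 9.05, so it was the highest of the window in replicate 1 only. The 4 regions beyond it all overlapped H3K4me1 consensus. Joined with their H3K4me1 they formed stretches with both marks from 87504348 to 87506868, from 87507200 to 87511079, from 87513088 to 87514336 and from 87514580 to 87515382. The H3K27ac region of the second of these, 3744 bp long, was longer than 94.6% of H3K27ac consensus regions. Replicate 1 called it as a peak of 3733 bp. Replicates 2 and 3 called separate, shorter peaks there, the longest 1163 and 1841 bp. In the last of the 4 stretches the marks shared 117 bp. When 0.5 of the shorter region had to be shared, 2 in place of 4 Junb regions overlapped H3K4me1.

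The highest H3K4me1 region at Junb lay inside the first of these stretches. It ran from 87505653 to 87506843, with folds of 11.8 and 10.4 in H3K4me1 replicates 1 and 2 and ranks of 2978 and 2815. Its summits lay 5057 and 5079 bp above the gene position, close together in the 2 lists.

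The window of Egr1, which encodes a zinc finger factor, had the highest H3K27ac peak of the 4 windows in replicates 1 and 2. In replicate 3 a peak in the Nr4a1 window, whose gene was not determined, was higher. The Egr1 peak lay in a 3092 bp consensus region from 35012880 to 35015971, at -8.02 to -4.93 kb from the position 35020900 given for the gene (negative towards lower coordinates). Its fold was 45.5 in replicate 1, 21.98 in replicate 2 and 17.7 in replicate 3, and it ranked 7, 75 and 1216 in those lists. In replicate 3 the highest peak of the Nr4a1 window had a fold of 21.1 and rank 496. The minus log10 q-values of the Egr1 peak were 142, 65.4 and 41.5. It stood within the highest 0.0176%, 0.223% and 4.03% of the 3 lists, so its place was less extreme in replicate 3, the list with the fewest tags. The summits lay at -5247, -5422 and -6276 bp from the gene position.

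All 5 H3K27ac consensus regions of the Egr1 window lay below the gene position, between 35007554 and 35019471. On the higher side no H3K27ac peak of any list lay between 35021614 and 35044291, a stretch of 22.7 kb. Of the 5 regions 4 overlapped H3K4me1 consensus, and the fifth, nearest the gene, overlapped an H3K4me1 peak of 1 list. The stretches with both marks ran from 35007443 to 35009937, from 35012880 to 35015971, from 35016051 to 35016851 and from 35017136 to 35018270. In the first the marks shared 2360 bp, the whole of its H3K27ac region. The joined H3K4me1 region of that stretch, 2495 bp long, was longer than 98.3% of H3K4me1 consensus regions. Both H3K4me1 lists called separate peaks there, the longest 1600 and 1330 bp in replicates 1 and 2. In the stretch with the highest H3K27ac, the H3K4me1 consensus region, 35013239 to 35014305, lay wholly within the H3K27ac region and ended before the summit of the highest H3K27ac peak of each list. A second, lower H3K27ac peak of replicate 3, from 35013452 to 35013652 with a fold of 4.53, lay inside it. H3K4me1 was also called in the same stretch in 1 list each, from 35015099 to 35015350 in replicate 1 and from 35015497 to 35015754 in replicate 2.

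At the Egr1 position the H3K27ac calls differed between lists. Within 1 kb of it H3K27ac covered 1043 bp in replicate 1, 196 bp in replicate 2 and 0 bp in replicate 3. In replicate 1 a pair of peaks lay on either side of the position, from 35020577 to 35020810 and from 35021047 to 35021613, each with a fold of 10.9. H3K4me1 covered 777 and 394 bp within 1 kb in replicates 1 and 2, all of it on the higher side. That consensus region, 35021123 to 35022404, began 223 bp above the gene position and had folds of 6.16 and 5.45. It overlapped H3K27ac in replicate 1 only.

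Over the whole Egr1 window cover by the marks was not separated. H3K27ac covered 14.4%, 9.39% and 6.94% in its 3 lists and H3K4me1 14.1% and 12.3% in its 2, and the lists of the marks overlapped. Mean cover was 8.19 ± 3.05 kb for H3K27ac (SD, n = 3) and 10.6 ± 1.01 kb for H3K4me1 (SD, n = 2), a difference of -2.37 kb (exact permutation test, two-sided p = 0.5, adjusted p = 0.5 over the 4 loci). It was -0.50 kb when peaks needed a minus log10 q of 10 or more, -1.20 kb in the middle 0.5 of the window, -4.03 kb without H3K27ac replicate 1 and -1.04 kb without H3K27ac replicate 3. Of same-length windows 1.58%, 2.55% and 3.48% had as much H3K27ac, and 1.49% and 2.04% had as much H3K4me1. Among them 71.0% to 74.1% held no H3K27ac peak in a list. The H3K4me1 region with the best mean rank was not in the cluster below the gene. It ran from 35047528 to 35048155, 26.6 kb above the gene position, with folds of 12.8 and 9.51, and an H3K27ac region there was called in replicates 1 and 2.

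**Figure D1:**
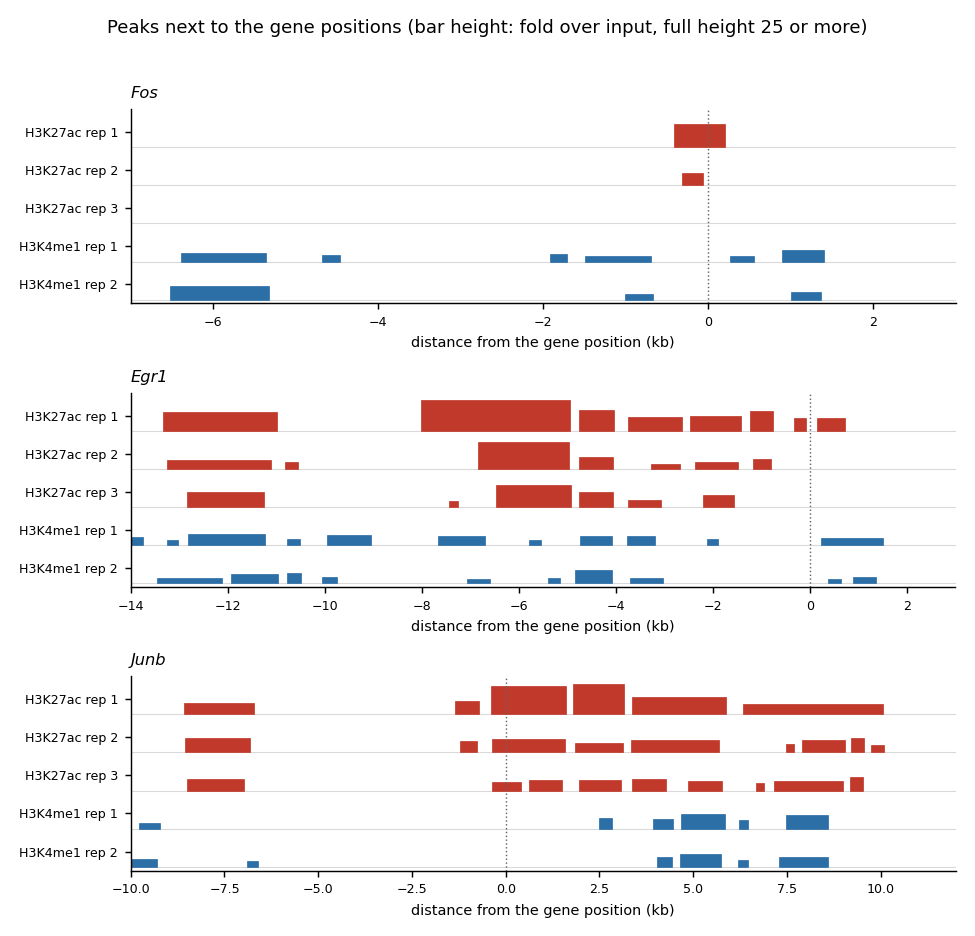
Peaks around the positions given for Fos, Egr1 and Junb. The x axis is the distance from the gene position in kb (positive towards higher coordinates), each line is a list, and the height of a bar is the authors' fold over input (full height for 25 or more). H3K27ac crosses the Junb position without H3K4me1, lies mostly below the Egr1 position with its highest peak at -5247 bp in replicate 1 and 1 peak of that list just above the position, and at Fos is a short peak in replicates 1 and 2 with H3K4me1 on both sides.

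Fos, which encodes the AP-1 partner of Jun proteins, had a short H3K27ac peak at its position in 2 of 3 lists. The peak ran from 86814491 to 86815099 in replicate 1, with a fold of 19.4 and rank 2561, and from 86814579 to 86814842 in replicate 2, with a fold of 10.23 and rank 5930. Replicate 3 had no H3K27ac peak in the whole 100 kb window. The summits were at -223 and -233 bp from the position 86814900, the side that is upstream for a gene on the plus strand. The joined region of 609 bp was shorter than the median H3K27ac consensus region of 981.5 bp.

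H3K4me1 framed that peak at Fos on both sides. A consensus region from 86813405 to 86814228 ended 262 bp before it, with folds of 4.78 and 4.50. Another from 86815801 to 86816305 began 901 bp above the gene position, with folds of 9.84 and 6.60. None of the 5 H3K4me1 consensus regions of the window overlapped H3K27ac in any list. The one with the best mean rank, 86808379 to 86809576, lay at -6.52 to -5.32 kb from the gene position and was longer than 85.7% of H3K4me1 consensus regions. Its folds were 7.18 in replicate 1, rank 27199, and 11.2 in replicate 2, rank 1650, so its rank differed widely between the lists.

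Away from the Fos position, H3K27ac was seen at 3 more places. A region from 86796481 to 86797066, ending at -17.83 kb from the gene position, was called in replicates 1 and 2 with folds of 14.8 and 5.16, and overlapped an H3K4me1 peak of replicate 2. On the higher side, regions at 86826579 to 86826919 and 86827474 to 86827700 were called in replicate 1 only, with folds of 10.9 and 5.37. An H3K4me1 peak of replicate 1 overlapped that with the fold of 10.9.

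Over the Fos window H3K27ac covered 1.76%, 0.540% and 0% in its 3 lists, below the 5.95% and 3.40% for H3K4me1 in its 2. Mean cover was 0.768 ± 0.903 kb for H3K27ac (SD, n = 3) and 4.68 ± 1.81 kb for H3K4me1 (SD, n = 2), a difference of -3.91 kb (exact permutation test, two-sided p = 0.1, the smallest this design allows, adjusted p = 0.2 over the 4 loci). When peaks needed a minus log10 q of 10 or more it was -2.26 kb. Of same-length windows 16.5% and 24.6% had as much H3K27ac in replicates 1 and 2, and 6.30% and 12.3% had as much H3K4me1. Of the same windows 67.7% to 70.9% held no H3K27ac peak in a list.

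The window of Nr4a1, which encodes an orphan nuclear receptor, had 1 H3K27ac consensus region and 9 H3K4me1 consensus regions. The H3K27ac region ran from 101114393 to 101115424, 1032 bp long, with folds of 11.2, 11.4 and 21.1 and ranks of 10737, 4111 and 496 in replicates 1, 2 and 3. Here the best rank was in replicate 3, and the summits of the 3 lists, at 101114552, 101114590 and 101114565, lay close together. It overlapped no H3K4me1 peak, and the nearest H3K4me1 consensus was 12934 bp away. An H3K4me1 peak called in replicate 1 only, 101117127 to 101117414 with a fold of 4.46, lay 1702 bp above it. No mm9 position of the gene was given, so which gene the H3K27ac region belongs to was not determined. It may lie at Nr4a1, at a neighbour such as Atg101 on the higher side, or at neither. It is therefore not shown to mark the start of Nr4a1.

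Between 101077465 and 101114392 no H3K27ac peak of any list was called in the Nr4a1 window, a stretch of 36.9 kb. That stretch held 3 H3K4me1 consensus regions covering 3.84 kb, all in its lower part. From 101098783 to 101114392, the 15.6 kb next to the H3K27ac region, no peak of either mark was called. The longest, 101091491 to 101093614, was 2124 bp long, longer than 97.1% of H3K4me1 consensus regions, with folds of 11.02 and 6.07. The others were 101087126 to 101087659, with folds of 7.01 and 5.91, and 101097603 to 101098782, with folds of 5.24 and 6.15. By mean rank the highest H3K4me1 region of the window was 101074664 to 101075073, with folds of 11.998 and 6.65 and ranks of 2600 and 23405. H3K27ac was called over it in replicates 1 and 3, with folds of 5.91 and 8.11.

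H3K27ac covered 2.41%, 1.24% and 1.21% of the Nr4a1 window and H3K4me1 12.3% and 8.87%, with no overlap between the lists of the marks. Mean cover was 1.29 ± 0.546 kb for H3K27ac (SD, n = 3) and 8.47 ± 1.95 kb for H3K4me1 (SD, n = 2), a difference of -7.18 kb (exact permutation test, two-sided p = 0.1, the smallest this design allows, adjusted p = 0.2 over the 4 loci). In the middle 0.5 of the window it was -3.57 kb. With this number of lists no locus could reach a lower p, so none of the 4 differences was called. Of same-length windows 13.1%, 16.5% and 15.6% had as much H3K27ac and 2.02% and 3.73% as much H3K4me1. Among them 71.0% to 74.1% held no H3K27ac peak in a list.

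**Figure D2:**
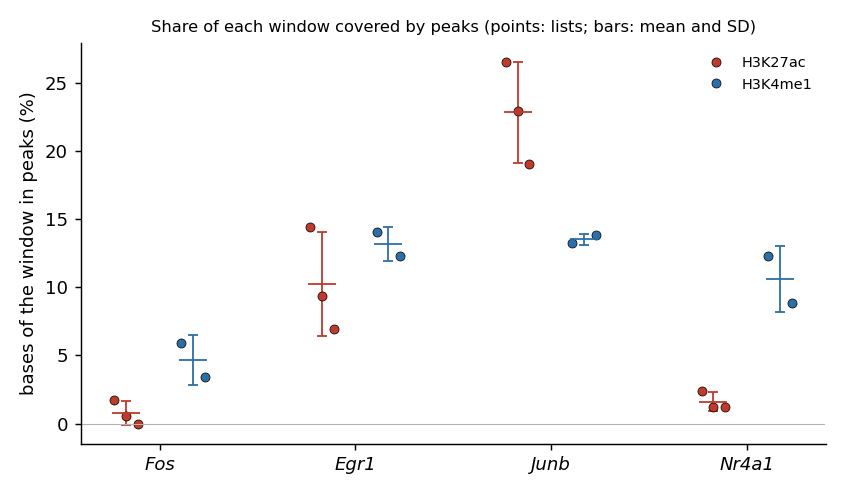
Share of the bases of each window in called peaks, in percent, for H3K27ac and H3K4me1. Each point is a list, and the bars give the mean and SD (n = 3 and 2 lists). All H3K27ac points at Junb lie above its H3K4me1 points, between 19.1% and 26.5%, and all at Fos and Nr4a1 lie below theirs.

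The order of the loci by H3K27ac cover was the same in all 3 lists: Junb, Egr1, Nr4a1, Fos. The ranges of Junb, 19.1% to 26.5%, and Egr1, 6.94% to 14.4%, did not overlap. Those of Nr4a1, 1.21% to 2.41%, lay below both and overlapped those of Fos, 0% to 1.76%. For H3K4me1 the range of Junb, 13.3% to 13.8%, lay within that of Egr1, 12.3% to 14.1%. Nr4a1, at 8.87% to 12.3%, lay below Junb and met the lower end of Egr1, and Fos, at 3.40% to 5.95%, lay below all 3. The windows differ in length, from 50 to 100 kb, so cover was also taken within 10 kb of the 3 given gene positions. There H3K27ac covered 60.0%, 48.6% and 42.6% at Junb, 36.2%, 22.2% and 18.8% at Egr1 and 3.05%, 1.32% and 0% at Fos. H3K4me1 covered 20.0% and 20.4% at Junb, 26.5% and 15.97% at Egr1 and 15.3% and 9.57% at Fos.

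**Figure D3:**
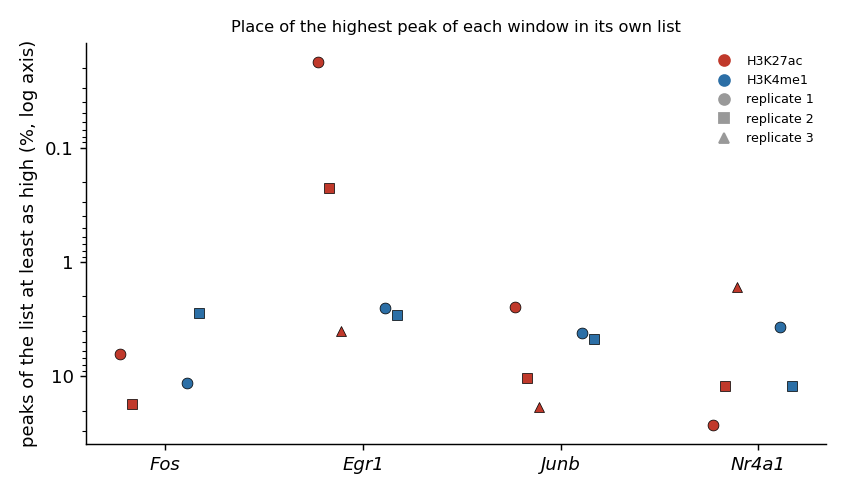
Place of the highest peak of each window within its own list, as the percentage of peaks of that list that are at least as high by fold (log axis, higher peaks at the top). Symbols are replicates. The Egr1 peak is at 0.0176% and 0.223% in H3K27ac replicates 1 and 2, and Fos has no point for H3K27ac replicate 3.

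Consensus regions of the marks overlapped at Egr1 and Junb. Fos had no H3K27ac consensus region and Nr4a1 had 1, which left no or little room for an overlap there, so the loci are not compared on this count. Of the 13 H3K27ac consensus regions 8 overlapped H3K4me1 consensus, 4 at Egr1 and 4 at Junb, beside 40.5% of all H3K27ac consensus regions. Another 3 overlapped H3K4me1 peaks of 1 list, and 2 overlapped none: the region across the Junb position and the region in the Nr4a1 window. Of the 34 H3K4me1 consensus regions 10 overlapped H3K27ac consensus, 4 at Egr1 and 6 at Junb, beside 24.4% overall. No test was run on these counts.

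H3K27ac calls differed between lists at these loci. Of the 8 joined regions called in exactly 2 H3K27ac lists, 6 lacked replicate 3, beside 51.0% of such regions over the series. They comprised 2 at Fos, 3 at Egr1 and 1 at Junb. Of the 11 regions called in 1 list only, 8 were of replicate 1, the list with the most tags, beside 59.4% of such regions over the series. The part of depth in these differences was not tested.

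**Figure D4:**
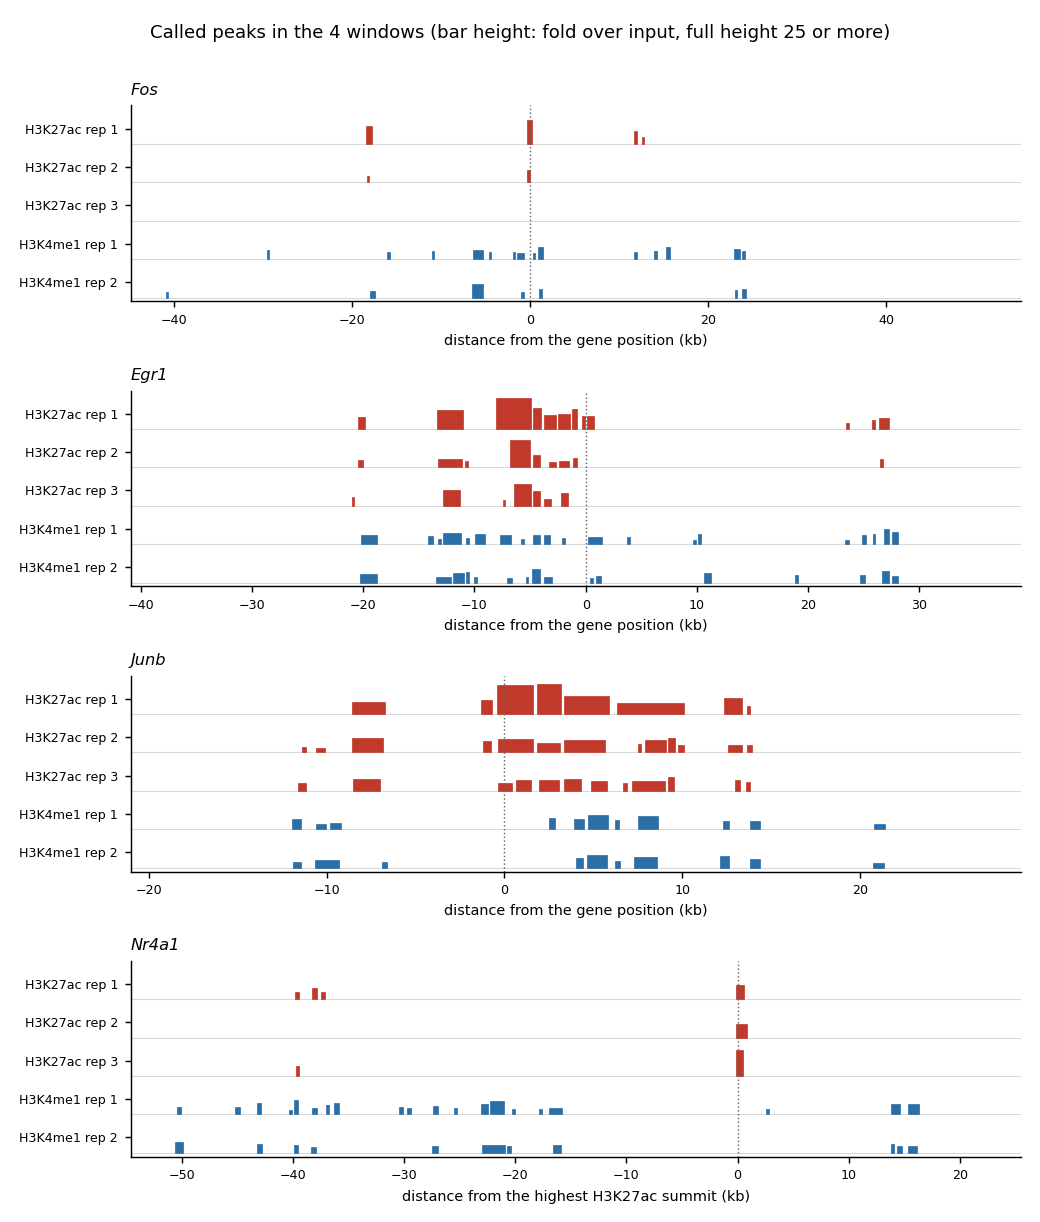
All called peaks in the 4 windows, with distance in kb from the gene position (for Nr4a1, from the highest H3K27ac summit) on the x axis and 1 line for each list. Bar height is the authors' fold over input, full at 25 or more. In the Nr4a1 window the 36.9 kb without an H3K27ac peak holds H3K4me1 peaks in its lower part and no peak of either mark in its last 15.6 kb.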

How the data were processed

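Chromatin was crosslinked with 1% formaldehyde, sonicated and immunoprecipitated, and libraries were read on an Ion Torrent Proton, as the labels' protocols state. Per the file headers, the authors called narrow peaks with MACS2, setting every immunoprecipitate against the matching input and keeping 1 tag per position, at a q-value limit of 0.001. These name version 2.1.1.20160309 for H3K27ac and 2.0.10.20130306 for H3K4me1, and the submitters' processing notes give mm9 and, for MACS2, 2.0.10.20130306 alone. No aligner is named there (not given in the sources used here). The deposited fold is a ratio, the authors' enrichment at the summit over background from the input. The deposited signal is the pileup at the summit, with the larger of immunoprecipitate and input scaled to the smaller per the file headers. The −log10 p- and q-values are also the authors'. Narrow calling can split wide marks into several peaks.

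Peaks of a list that overlapped or touched were joined, and regions were taken from the union of a mark's lists. Marks overlapped from 1 bp. Cover of each window was compared between marks by an exact permutation test over the 5 lists, with Benjamini-Hochberg adjustment over 4 loci. Ranks are by fold within a list. Distances run from the gene position stated in the rule for the window, for Nr4a1 from the highest H3K27ac summit. The rule gives Fos, Egr1 and Junb as near these positions and does not say whether they are gene starts. Regions named are those nearest the gene position, those with the best mean rank for each mark and those with both marks. Other regions given by position (those called in some lists only, those beside the Fos and Egr1 positions, the H3K27ac region next to Junb and H3K4me1 regions of the Nr4a1 gap) were chosen after their values were seen. The members and lists of motifs were chosen with earlier results of these data known. The gene table was of GRCm38.p6 and gave names and order only, so the other immediate early genes, cell type markers and genes most like a member, planned for an mm9 annotation, were not analysed here. Joining was tested on simulated data of 3000 sites, where all 4 checks were recovered. Python 3.11.15, NumPy 2.4.6, SciPy 1.17.1 and Matplotlib 3.10.9 were used.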

Additional observations from a re-analysis of the deposited data

How the results depend on the processing

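No alternative scaled cover to the genome-wide total of each list, which was larger in both H3K4me1 lists than in any H3K27ac list. Under every alternative tried the sign of the difference in cover between the marks was kept at all 4 loci, but its size was not. With the stricter limit, a minus log10 q of 10 or more, it was -2.26 kb in place of -3.91 at Fos and -0.50 kb in place of -2.37 at Egr1. In the middle 0.5 of the window it was -1.20 kb at Egr1 and -3.57 kb in place of -7.18 at Nr4a1. With the lists paired by replicate number as a replicate block (numbers 1 and 2), the differences were -3.52 kb at Fos, -1.04 kb at Egr1, 5.60 kb at Junb and -7.01 kb at Nr4a1. The labels number replicates within each mark and their titles number all immunoprecipitates in 1 run, so the lists share only a number and nothing ties them into pairs. With 2 pairs the exact sign-flip test cannot give a p below 0.5. The range with lists left out in turn was -5.19 to -2.63 kb at Fos, -4.03 (without H3K27ac replicate 1) to -1.04 kb (without H3K27ac replicate 3) at Egr1, 3.74 to 5.60 kb at Junb and -8.56 to -5.80 kb at Nr4a1.

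Counts of consensus regions moved with several settings. For H3K27ac at Fos the count was 0, and 2 with regions of at least 2 lists; with lists left out in turn it ranged from 0 to 2, and was 2 without H3K27ac replicate 3. At Egr1 it was 5, but 3 with minus log10 q of at least 10, 2 with peaks joined across 1000 bp, 8 with at least 2 lists, and 5 to 8 with lists left out (8 without replicate 3). At Junb it was 7, and 3 when joined. At Nr4a1 it was 1, and 2 with at least 2 lists; with lists left out it was 1 to 2 (2 without replicate 2). For H3K4me1, Fos had 5 regions, 2 with the stricter q, 3 when joined and 7 to 14 with a list left out (here and at Egr1 and Nr4a1 the higher count is without H3K4me1 replicate 2). Egr1 had 11, 6 with the stricter q, 5 when joined and 16 to 20 with a list left out. Junb had 9, and 5 when joined. Nr4a1 had 9, 3 in the middle 0.5 of the window and 11 to 20 with a list left out. With a list left out only 1 H3K4me1 list remained and each of its regions counted, so those counts do not measure agreement between lists. Ranked by pileup in place of fold, the mean percentile of the highest peak was 79.0 in place of 88.1 for H3K27ac at Fos, 85.8 in place of 92.9 for H3K4me1 at Fos, and 96.9 in place of 95.5 for H3K4me1 at Junb. With an overlap of 0.5 of the shorter region, 2 of the Junb regions overlapped H3K4me1 in place of 4. In these lists a missing peak does not show that the mark was absent. The part of depth in missing peaks was not tested, and no counts per region were at hand.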
